A study of Mus musculus with 2 samples.

Results

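Mir144, Mir451a and Mir486 are the microRNA genes best known from red blood cells, and here they were measured in newborn mouse liver together with Mir451b and Mir3107, which are annotated on the opposite strands of Mir451a and Mir486. The 5 genes were chosen by name, and 3 of them, Mir144, Mir451a and Mir486, had an entry among the 1973 microRNA genes of the deposited tables. Mir451b and Mir3107 had no entry, so reads on their strands appear only as counts opposite to Mir451a and Mir486. The libraries were made from total RNA of whole livers of B6NCrl mice at postnatal day 0, with inserts below 30 bases. There was 1 group of 2 libraries, pup 1 (replicate 1) and pup 2 (replicate 2) of the same pregnant female, with sex not recorded and with no treatment, mutant or second tissue. The tables count microRNA genes, so the erythroid label could not be checked against messenger RNAs of red cells.

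A microRNA is a short RNA cut from a hairpin in a longer transcript, and it guides Argonaute proteins to messenger RNAs that pair with its seed, the bases near its 5′ end. Mir144 and Mir451a lie in 1 primary transcript that the erythroid transcription factor GATA1 switches on. miR-144 is made in the usual way, by Drosha and then Dicer, whereas the hairpin of Mir451a is too short for Dicer and is cut by the Argonaute protein Ago2. Mice without the cluster are known to make red cells that withstand oxidative stress poorly. Mir486 lies in Ank1, the gene of a red cell membrane ankyrin that is also used in muscle. The fetal liver is a main site of red cell formation, which moves to the bone marrow around birth.

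The mature sequences show how the 2 hairpins of the cluster differ. They come from a table of RefSeq sequences on GRCm38.p6, used here for Mir144, Mir451a and Mir451b, and the capitals mark the seed, bases 2 to 8.
mmu-miR-144-5p: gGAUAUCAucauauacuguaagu
mmu-miR-144-3p: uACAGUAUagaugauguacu
mmu-miR-451a: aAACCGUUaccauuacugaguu
mmu-miR-451b: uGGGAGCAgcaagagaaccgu
The 4 seeds differed from each other. None of the 4 was found in a mature microRNA of another gene among 1738 mature entries.

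The hairpins follow, with the mature parts in capitals, to show where each microRNA sits.
Mir144 hairpin: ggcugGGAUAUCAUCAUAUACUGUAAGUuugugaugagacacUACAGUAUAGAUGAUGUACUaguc
Mir451a hairpin: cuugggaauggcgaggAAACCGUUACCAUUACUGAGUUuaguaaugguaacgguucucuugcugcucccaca
Mir451b hairpin: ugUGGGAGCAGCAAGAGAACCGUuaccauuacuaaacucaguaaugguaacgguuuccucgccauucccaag
Mir144 carries a mature microRNA on each arm, and neither covers the terminal loop of the structure computed by RNAfold. Mir451a carries 1, at bases 17 to 38 of 72, and it takes in all 4 bases of the computed terminal loop. The computed fold of Mir451a had 30 base pairs and a free energy of -43.3 kcal/mol, and that of Mir144 had 27 base pairs and -28.6 kcal/mol. The Mir451b hairpin is the reverse complement of the Mir451a hairpin. The stem is close to a palindrome: read 5′ to 3′, both hairpins had the same base at 52 of 72 positions. The longest run of miR-451a that is also on the opposite strand of its own hairpin was 16 bases, from base 2 to base 17, so the full mature sequence tells the strands apart. The mature sequences of Mir144 and Mir451a matched no hairpin of another locus among 1005 hairpins, Mir451b aside, which covers the same place as Mir451a.

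All positions are on mm10. Mir144 (ENSMUSG00000065401.1) lies on the plus strand of chromosome 11 from 78073005 to 78073070. Mir451a (ENSMUSG00000070065.1) lies 99 bases downstream on the same strand, from 78073170 to 78073241, and Mir451b takes the same bases on the minus strand. No protein-coding gene overlaps these hairpins, and the nearest end of Eral1, on the minus strand, is 134 bases beyond Mir451a. Mir486 (ENSMUSG00000070084.3) lies on the plus strand of chromosome 8 from 23142555 to 23142682, inside an intron of all 15 Ank1 transcripts that span it. Mir3107 lies on the minus strand from 23142573 to 23142662, wholly within the span of Mir486.

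**Figure D1:**
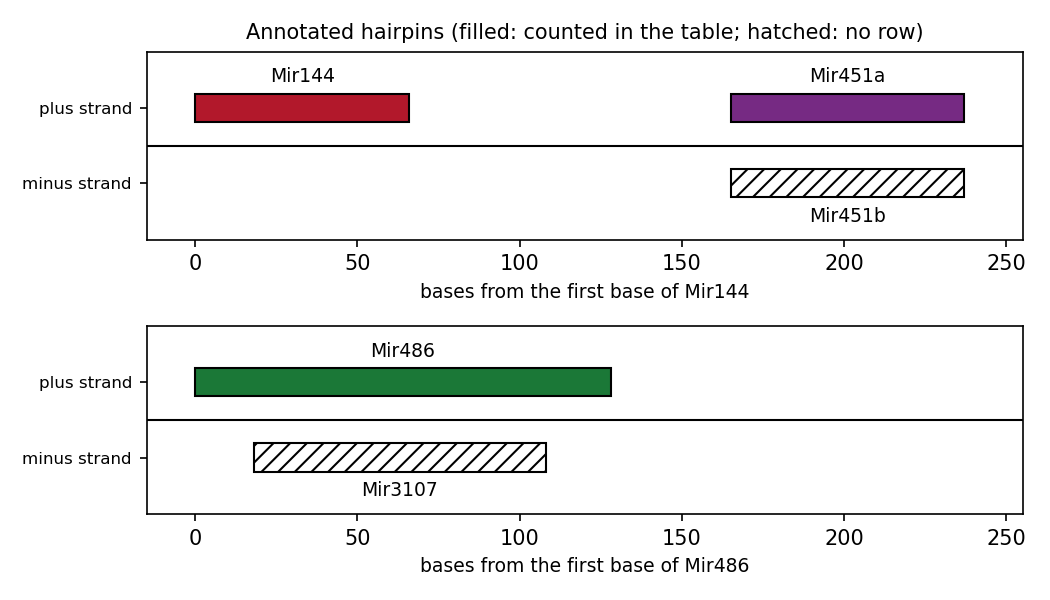
Annotated hairpins of the Mir144 and Mir451a locus (top) and the Mir486 locus (bottom), in bases from the first base of Mir144 or of Mir486, with the plus strand above the line and the minus strand below it. Mir451b covers the same 72 bases as Mir451a, and Mir3107 covers 90 of the 128 bases of Mir486.

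Pup 1 had 3422622 and pup 2 had 4538427 reads on the strand of a microRNA gene. Levels are counts per 1000000 of these reads (CPM), given as the value in each pup or as the mean ± SD over 2 pups. Reads that mapped to several loci, 25.2% of all reads in pup 1 and 24.7% in pup 2, are on no gene. A count of 0 allows up to 0.877 CPM in pup 1 and 0.661 CPM in pup 2, which is 3 counts. Intervals are at 95%. Like these limits they leave out all error but that of counting, and PCR copies of 1 molecule are counted as separate reads.

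The first question was how much of each microRNA the livers held. In uniquely placed reads, Mir451a was the highest of the 3 genes, Mir144 came next, and Mir486 was far below both. Mir486 reads that also fit another place, such as its own opposite strand, are on no gene, and how much this changes its level and the shares and ratios with it was not tested. Mir451a, the Dicer-independent microRNA of the cluster, had 13269 counts or 3877 CPM in pup 1 (exact interval 3811 to 3943) and 15022 counts or 3310 CPM in pup 2 (3257 to 3363). Mir144, its neighbour, had 4704 counts or 1374 CPM in pup 1 (1335 to 1414) and 8104 counts or 1786 CPM in pup 2 (1747 to 1825). Mir486 had 197 counts or 57.6 CPM in pup 1 (49.8 to 66.2) and 247 counts or 54.4 CPM in pup 2 (47.9 to 61.7). The pups' values for the 3 genes did not overlap, so the order Mir451a, Mir144, Mir486 was the same in both pups. In a whole organ, fewer cells of a type and less RNA per cell cannot be told apart.

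Over both pups Mir451a averaged 3593 ± 401 CPM, Mir144 averaged 1580 ± 291 CPM and Mir486 averaged 56.0 ± 2.22 CPM (SD, n = 2 each). The SD was 11.2% of the mean for Mir451a, 18.4% for Mir144 and 3.96% for Mir486. By mean level they ranked 40, 66 and 198 among the 1973 genes. Mir451a ranked 39 in pup 1 and 43 in pup 2, Mir144 ranked 69 and 62, and Mir486 ranked 197 and 199. The ranks therefore moved by up to 7 places between the pups. With 2 pups the smallest two-sided p of an exact sign-flip permutation is 0.5, so these gaps are read against the spread between the pups.

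**Figure D2:**
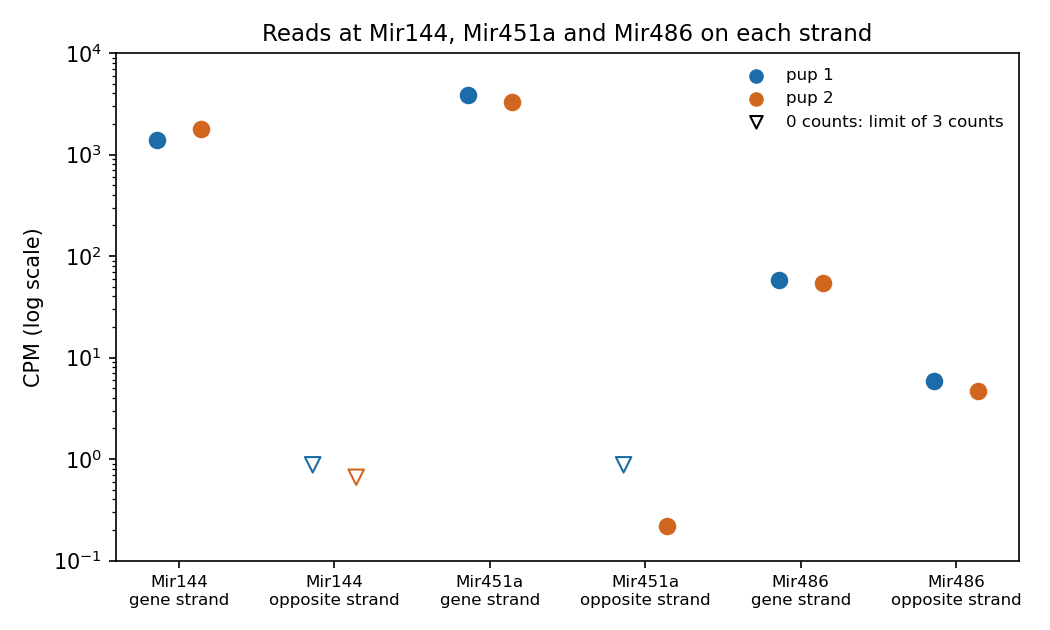
CPM (log scale) of Mir144, Mir451a and Mir486 on the gene strand and on the opposite strand in pup 1 and pup 2, 1 point per library; open triangles mark 0 counts, drawn at the limit of 3 counts. On the gene strand Mir451a lies at 3877 and 3310 CPM and Mir486 at 57.6 and 54.4 CPM, and only Mir486 has more than 1 read on the opposite strand of a library.

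The 3 genes together took 18170 counts in pup 1 and 23373 counts in pup 2. This was 0.531% and 0.515% of the microRNA reads, a mean of 0.523% ± 0.0112 (SD, n = 2). With Mir122 left out of the total the share was 0.803%, and the levels were 2429 CPM for Mir144, 5513 CPM for Mir451a and 85.9 CPM for Mir486. The sum differed less between the pups than its parts did. Mir451a made up 73.0% of it in pup 1 and 64.3% in pup 2, and Mir144 made up 25.9% in pup 1 and 34.7% in pup 2. Mir486 stayed a small part, 1.08% in pup 1 and 1.06% in pup 2. In uniquely placed reads, the Mir451a count was 67.4 times that of Mir486 in pup 1 and 60.8 times in pup 2, a mean of 64.1 ± 4.62. In the same reads, the Mir144 count was 23.9 times that of Mir486 in pup 1 and 32.8 times in pup 2, a mean of 28.3 ± 6.32.

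Reads on the opposite strand showed whether Mir451b and Mir3107, which have no entry of their own, were read at all. At Mir451a the strand was nearly pure. Opposite to it, where Mir451b is annotated, there were 0 reads in pup 1 and 1 read in pup 2. Over both pups that was 1 of 28292 reads, or 0.00353% (exact interval 8.9e-05% to 0.0197%). Mir144 had 0 reads on its opposite strand in either pup, of 12808 over both, which allows at most 0.0638% in pup 1 and 0.0370% in pup 2. Expression of Mir451b was thus not detectable above a single read at this depth.

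Mir486 differed from the cluster in this respect. Its opposite strand, which holds Mir3107, had 20 reads or 5.84 CPM in pup 1 and 21 reads or 4.63 CPM in pup 2. This was 9.22% (exact interval 5.72 to 13.9) of the reads at the place in pup 1 and 7.84% (4.92 to 11.7) in pup 2, a mean of 8.53% ± 0.976 (SD, n = 2). Neither interval overlaps those of Mir144 or Mir451a. Of 312 genes that had 10 or more gene-strand counts in each pup, 277 had 0 reads on the opposite strand. In 4 of the 312 the share there was higher than at Mir486, namely Mir291a, Mir292, Mir3074-1 and Mir7240, named after their values were seen. This filter leaves out genes read only on the opposite strand. Of 401 genes with 10 or more counts on both strands together over both pups, 350 had 0 reads on the opposite strand. How many of the 401 lay above Mir486 was not counted. The counted span is that of Mir486, so up to 38 of its 128 bases lie outside Mir3107, and reads there cannot be told from reads of Mir3107. The RefSeq gene list gives the pair the synonyms mir-486a and mir-486b, which are known to give the same or nearly the same mature microRNA from both strands. A read that fits both strands would be among the reads at several loci. How many there were was not tested, so the Mir486 level and its strand share describe uniquely placed reads. They do not give the level of its mature microRNA.

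The next question was where these levels stand among microRNAs known from other cells of the liver. Mir451a held 0.437 ± 0.0217 times the level of Mir223 (8567 CPM in pup 1 and 7846 CPM in pup 2), which is known from granulocytes and other myeloid cells. Set against Mir126a of the endothelium, its level was 0.0588 times as high in pup 1 and 0.0479 times in pup 2. Set against Mir122 of the hepatocyte, the highest gene of the table, it was 0.0113 times as high in pup 1 and 0.00933 times in pup 2. All 3 ratios lay below 1 in both pups, far beyond their spread. Levels of different microRNAs also depend on how well each sequence is ligated and amplified, for which nothing was corrected.

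**Figure D3:**
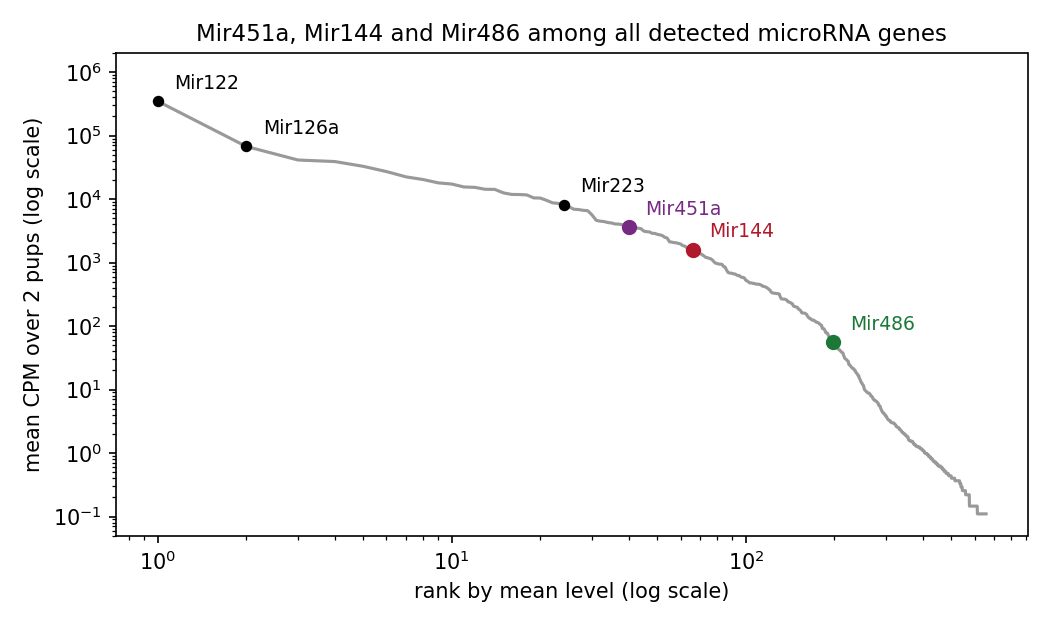
Mean CPM over 2 pups of every gene with a count, against its rank (both axes on a log scale), with Mir451a, Mir144 and Mir486 in colour and Mir122, Mir126a and Mir223 in black. By uniquely placed reads, Mir451a at rank 40 and Mir144 at rank 66 lie on the shoulder of the curve, and Mir486 at rank 198 lies on its steep part.

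As summed shares, the 3 erythroid genes held 0.523% ± 0.0112 of the reads, against 0.996% ± 0.0626 for the 6 leukocyte genes with an entry and 36.4% ± 0.824 for the 5 hepatocyte genes. The erythroid sum was 0.511 times the leukocyte sum in pup 1 and 0.541 times in pup 2. Mir223, Mir342 (1166 ± 119 CPM) and Mir146 (422 ± 2.86 CPM) led the leukocyte genes. Mir142, a further leukocyte gene, had no entry, and 45420 reads in pup 1 and 58328 in pup 2 lay opposite to Mir142b at its place. With those reads alone the gap between the sums would be wider. The erythroid sum in turn leaves out Mir486 reads that fit more than 1 place. How many there were was not tested, so the gap is that of uniquely placed reads. Endothelial Mir126a alone held 6.76% ± 0.226.

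Genes nearest in level to each microRNA were found by the distance of log2(CPM + 1) over the 2 libraries. Mir148a (3694 CPM in pup 1 and 3306 CPM in pup 2, distance 0.0696) and Mir423 (3609 and 3510 CPM, 0.134) were nearest to Mir451a. Mir381 (1305 and 1733 CPM, 0.0862) and Mir27b (1477 and 1662 CPM, 0.147) were nearest to Mir144. Mir3105 (59.9 and 56.9 CPM, 0.0837) and Mir3074-1 (63.1 and 54.9 CPM, 0.131) were nearest to Mir486. With 2 libraries this likeness is one of level only.

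The pups were then compared gene by gene. Mir451a was higher in pup 1 and Mir144 was lower in pup 1, so the neighbours moved in opposite directions, while the Mir486 counts did not differ beyond counting error. The log2 ratio, pup 1 over pup 2, was 0.23 for Mir451a (exact interval 0.19 to 0.26), a 1.17-fold difference. It was -0.38 for Mir144 (-0.43 to -0.33), a 0.770-fold difference, and 0.08 for Mir486 (-0.20 to 0.36). In the two-sided exact binomial test with Benjamini-Hochberg adjustment over 390 genes, the adjusted p was 8.64e-39 for Mir451a, 6.87e-46 for Mir144 and 0.774 for Mir486. This test called 2 of the 3 genes, against 30.3% of all genes tested (14.4% higher in pup 1 and 15.9% lower). That share includes genes with few counts, which are harder to call. The 3 genes have 100 counts or more in each pup, and of the 221 such genes, tested alone, the test called 112. It compares 2 libraries for counting error only and not conditions, and with 1 library per pup the difference has no replicate check.

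When the spread between the libraries was taken as noise, neither gene was called. An exact negative binomial test (edgeR), run with 1 common dispersion for all genes, gave an unadjusted p of 0.391 for Mir451a, 0.157 for Mir144 and 0.793 for Mir486, and an adjusted p of 1 for each. It called 0.513% of all genes. Its dispersion was estimated from these same 2 libraries, so the difference tested was also its noise. Few calls were therefore built in, and the test cannot decide whether the pups differ. Of the 221 genes that had 100 counts or more in each pup, 18 (8.14%) had a log2 ratio of at least the size of Mir144's, 51 (23.1%) of at least the size of Mir451a's and 148 (67.0%) of at least the size of Mir486's. The median size over these genes was 0.12.

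**Figure D4:**
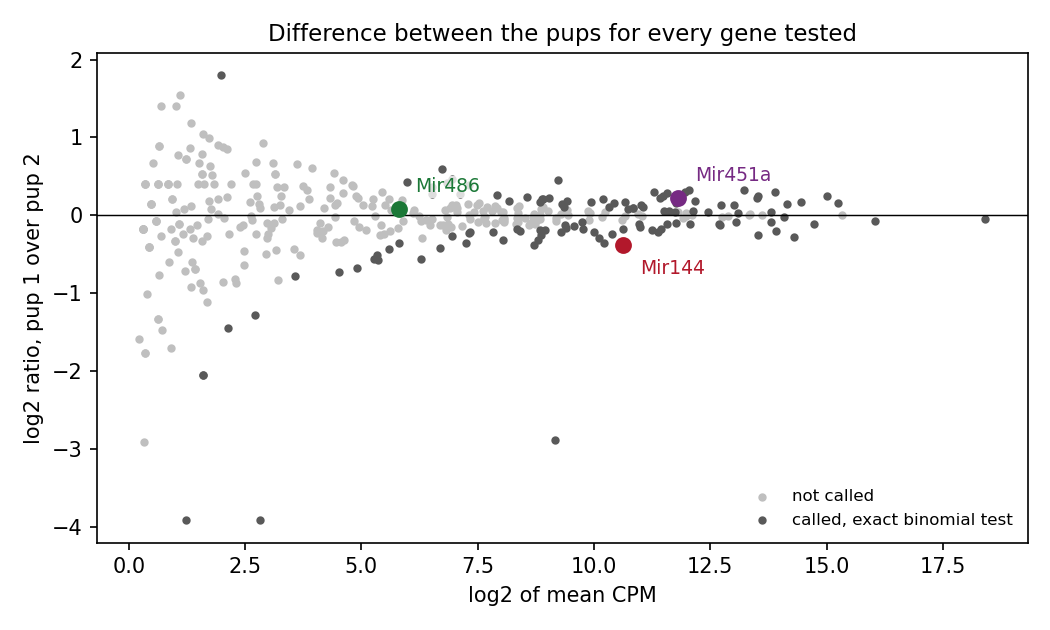
Log2 ratio of pup 1 over pup 2 against the log2 of the mean CPM for the 390 genes tested, 1 point per gene, dark where the exact binomial test called it. Mir451a at 0.23 lies above the line of equal levels, Mir144 at -0.38 lies below it, and Mir486 at 0.08 lies near it.

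The ratio of Mir451a to Mir144 needs no library size, since both counts come from the same library. It was 2.82 in pup 1 and 1.85 in pup 2, a mean of 2.34 ± 0.684 (SD, n = 2). Mir451a therefore exceeded Mir144 in both livers, by an amount that differed between them. The odds ratio of the 4 counts, pup 1 over pup 2, was 1.52 (exact interval 1.46 to 1.59), with a two-sided p of 2.16e-83 in Fisher's exact test. That test too covers counting error only. The count of Mir144 joins reads of miR-144-5p and miR-144-3p, because an entry covers a whole hairpin, so which arm moved is not known.

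Other neighbouring genes give a measure of how much such ratios move. There were 48 pairs of genes with 100 counts or more in each pup that lay within 1000 bases on 1 strand. In each pair the 2 genes were next to each other once genes with fewer counts were left out. A gene with fewer counts can therefore lie between them. The size of the difference between the log2 ratios of a pair had a median of 0.21, and for Mir144 and Mir451a it was 0.61, the second highest. Only Mir293 and Mir294, with 108 to 210 counts, had a larger one, 0.65, and Mir15b and Mir16-2 had 0.60. Mir99a and Mirlet7c-1 had the smallest, 0.01. Of the 24 pairs with at least 1000 in each of their 4 counts, Mir144 and Mir451a had the largest difference, with Mir15b and Mir16-2 almost level with them. Many pairs lie in a few clusters and are not independent of each other, and this order is a description of 2 libraries. It rests on uniquely placed reads, and how many reads of the other pairs fit several loci was not tested.

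**Figure D5:**
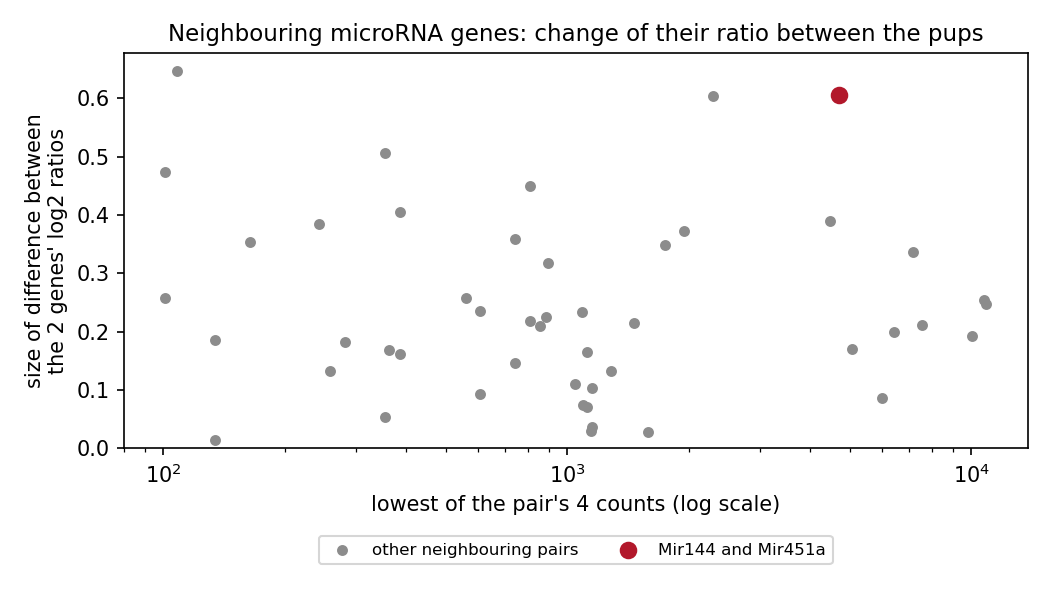
Size of the difference between the log2 ratios (pup 1 over pup 2) of neighbouring microRNA genes, against the lowest of the pair's 4 counts (log scale), 1 point per pair for 48 pairs. Mir144 and Mir451a, in red at 0.61, lie level with Mir15b and Mir16-2 at 0.60 and above the other pairs with at least 1000 counts.

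Other microRNAs linked to red cell formation were taken from a list of 15 genes, of which 13 had an entry. They include Mir221 and Mir222, which repress the stem cell factor receptor Kit, and Mir15a and Mir16-1, which repress Myb. In the exact binomial test 3 of the 13 were higher in pup 1 and 2 were lower, against 14.4% and 15.9% of all genes tested. The 13 also have 100 counts or more in each pup, and of the 221 such genes, tested alone, the test called 112. The negative binomial test called 0 of the 13, against 0.513% of all genes. Those higher were Mir223 (log2 ratio 0.13), Mir16-1 (0.26) and Mir16-2 (0.45), and those lower were Mir22 (-0.11) and Mir150 (-0.44). The median log2 ratio was 0.06, against -0.0022 over all 390 genes and 0.08 over the 3 erythroid genes. Mir22 was the highest of the list at 27131 ± 1416 CPM, followed by Mir23a at 10381 ± 55.6 CPM, Mir223 at 8207 ± 510 CPM and Mir15a at 4422 ± 0.496 CPM. Mir221 had 318 ± 17.3 CPM and Mir222 had 156 ± 11.2 CPM, both below Mir144. Most of these genes are also used outside red cells, so their levels in a whole liver do not belong to erythroid cells alone. Some, Mir223 and Mir150 among them, are also on the list of leukocyte genes used above. Reads that fit several loci, such as those shared by Mir16-1 and Mir16-2, are on no gene. How much this changes the levels and ratios of the list was not tested.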

How the data were processed

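The authors deposited raw read counts per microRNA gene, 1 table per library, built on mm10 and GENCODE release M4, as the readme deposited beside each table states. Which aligner and counting program made them is not given in the sources used here. The tables have columns without regard to strand, on the gene strand and on the opposite strand, as inferred from totals that match across columns. Uniquely mapped reads on no gene, 8.87% and 9.92%, stayed out of library sizes. Symbols and positions came from GENCODE M21 (1894 of 1973 identifiers; the other 79 held 0 counts). Hairpins were folded with RNAfold 2.7.2. Tests used R 4.3.3, edgeR 4.0.16, DESeq2 1.42.0 (size factors) and SciPy 1.17.1. Genes with 10 or more counts summed over the libraries were tested at an adjusted p of 0.05. The quasi-likelihood test could not be fitted, since 1 library per pup leaves no residual degrees of freedom. The binomial test was tested on simulated counts without variation between pups, so that check covers counting error only. Genes named are those chosen by name, Mir122, Mir126a, Mir223, up to 4 of the highest of each list, the 2 nearest in level to each gene, and the extreme neighbouring pairs. Called list genes, Mir221, Mir222, Mir291a, Mir292, Mir7240, Mir15b, Mir142b, Mir101a and Mir101b fall outside this rule and were chosen after their values were seen. The genes and lists were chosen with earlier results of these data known.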

Additional observations from a re-analysis of the deposited data

How the results depend on the processing

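Levels moved with the library size they are divided by. Without Mir122 in the total, Mir144 stood at 2429 CPM, Mir451a at 5513 CPM, Mir486 at 85.9 CPM and their summed share at 0.803%. With uniquely mapped reads as the library size, Mir486 stood at 50.7 CPM and the summed share at 0.474%, and with counts made without regard to strand at 58.4 CPM and 0.4995%. These shifts follow from the larger or smaller totals and, for Mir486, from its opposite-strand reads. TMM and DESeq2 size factors moved no level or share by more than the spread between the pups. Leaving out a pup gives the value of the other pup, and with 2 pups it says nothing about stability. Under the negative binomial exact test 2 genes were called between the pups in place of 118. The change of the Mir451a to Mir144 ratio had the same size there, 1.52, but neither gene was called (adjusted p = 1), because that test adds the spread between libraries to counting error. Under the other 7 settings of the binomial test, Mir144, Mir451a and Mir486 kept their direction and their side of the threshold. No paired analysis was possible because there is only 1 group. Mir486 had the fewest counts of the 3 genes, 197 and 247, so counting error was relatively largest for it. Its counts also leave out reads that fit more than 1 place, and how many there were was not tested.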

Other observations

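Mir101a and Mir101b, known as repressors of Ezh2, have a mature microRNA that begins much like miR-144-3p. In the RefSeq entries, with the seed in capitals, miR-101a-3p had the same bases as miR-144-3p from base 2 to base 7 and differed from it at base 8. The entry of miR-101b-3p holds the same letters shifted by 1 base.
mmu-miR-144-3p: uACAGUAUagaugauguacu
mmu-miR-101a-3p: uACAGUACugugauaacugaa
mmu-miR-101b-3p: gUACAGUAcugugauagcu
Among 1738 mature entries, miR-101a-3p was the only one of another gene to share bases 2 to 7 with miR-144-3p. The Mir144 count was 7.05 times that of Mir101a in pup 1 and 10.2 times in pup 2. Against Mir101b (18953 CPM in pup 1 and 17079 CPM in pup 2) it was 0.0725 times in pup 1 and 0.105 times in pup 2. These ratios are of uniquely placed reads, and whether reads of Mir101a or Mir101b also fit other loci was not tested.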
